A study of Mus musculus with 35 samples.

Results

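CHIR99021 was removed from the C6FAE cocktail, and chromatin accessibility with and without it was compared by ATAC-seq in mouse embryonic fibroblasts (MEFs) on day 4 of chemical reprogramming. The comparison was fixed by the treatment labels alone: C6FAE, called CaMP in the study, holds all 5 chemicals, and 6FAE lacks the letter C. It took in 4 ATAC-seq libraries, 2 of each treatment, of 14 ATAC-seq libraries and 35 samples in the series. Both treatments share the compound 6 (RepSox, an inhibitor of the TGF-beta receptor kinase), Forskolin (F), AM580 (A) and EPZ004777 (E). The other ATAC-seq treatments are CFAE and C6AE, which hold CHIR99021 and lack compound 6 or Forskolin, and AE, Basal and Ctr, of which AE has neither C, 6 nor F in its name and the labels define neither Basal nor Ctr. MEFs are a mixed primary culture rather than 1 cell type, and the labels do not say whether the libraries of a treatment came from separate cultures. The study's text calls the CaMP libraries biological repeats, and for 6FAE no source used here says so, so the spread between the 6FAE libraries may be technical.

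CHIR99021 inhibits the kinase GSK3. In cells without a Wnt signal, GSK3 marks beta-catenin for destruction, so that its inhibition lets beta-catenin build up, enter the nucleus and act with TCF/LEF factors at Wnt target genes. Forskolin raises cAMP, AM580 activates a retinoic acid receptor, and EPZ004777 inhibits DOT1L, the methyltransferase of H3K79. ATAC-seq reads mark DNA that a transposase can reach, such as active promoters and enhancers. H3K4me3 is a mark of promoters, and H3K27me3 is the mark that Polycomb places on silent developmental genes. The positions are those of the mouse build mm9, and no annotation of that build was used here, so regions are given by position and not by gene, and the fibroblast identity was not checked against marker genes.

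The depth and the peak strength of the 4 libraries were unequal within each treatment. The 6FAE libraries held 4960248 and 8764791 tags, and the C6FAE libraries held 7800792 and 5215704. With a -log10 q of 1.3 or more, the first 6FAE library kept 1027 peaks and the second 13337, against 15909 and 5567 in the C6FAE libraries. The first 6FAE library was therefore the weakest of the 4 by this count, and the first C6FAE library the strongest. Among the peaks of highest -log10 p, 20000 from each library, 52.9% of those of the first C6FAE library overlapped one of the second, but 62.6% overlapped one of the second 6FAE library. For the first 6FAE library, 29.5% overlapped one of the second 6FAE library, 30.4% one of the first C6FAE library and 27.01% one of the second. The second C6FAE library shared 52.9% with the first and 50.6% with the second 6FAE library. Sharing within a treatment was thus not consistently above that between treatments.

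Over the 36431 regions of the accessibility table, values were higher with CHIR99021 in most regions as deposited. The table gives 1 value of RPKM (reads per kilobase, scaled to the reads of the library) per treatment, merged over its libraries, so a difference between 2 columns has no replicate error. The median region had 17.7 RPKM in C6FAE and 14.3 RPKM in 6FAE. On the log2(RPKM + 1) scale the median difference was 0.28 (quartiles -0.07 and 0.59), and 70.7% of regions were above 0. At least 2-fold higher in C6FAE were 2977 regions, or 8.17% of the table, and at least 2-fold lower were 1268 regions, or 3.48% (11.7% in either direction).

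This excess of higher regions depended on the scaling. The column medians differed by 0.29 on the log2 scale, and with each column centred on its median 1312 regions were 2-fold higher in C6FAE, or 3.6%, and 2401 were 2-fold lower, or 6.59% (10.2% in either direction). Of the regions changed 2-fold, 70.1% were higher as deposited, 35.3% after centring, 49.3% after quantile normalization and 20.8% after centring on the most open 10% of the table. Which direction held more regions was thus set by the scale, and no overall gain or loss of accessibility can be read from the merged columns. The SD of the difference over regions was 0.61 on the log2 scale, which centring cannot change by its construction. The columns themselves had an SD of 0.77 in C6FAE and 0.64 in 6FAE, and centring leaves this unequal spread in place.

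**Figure D1:**
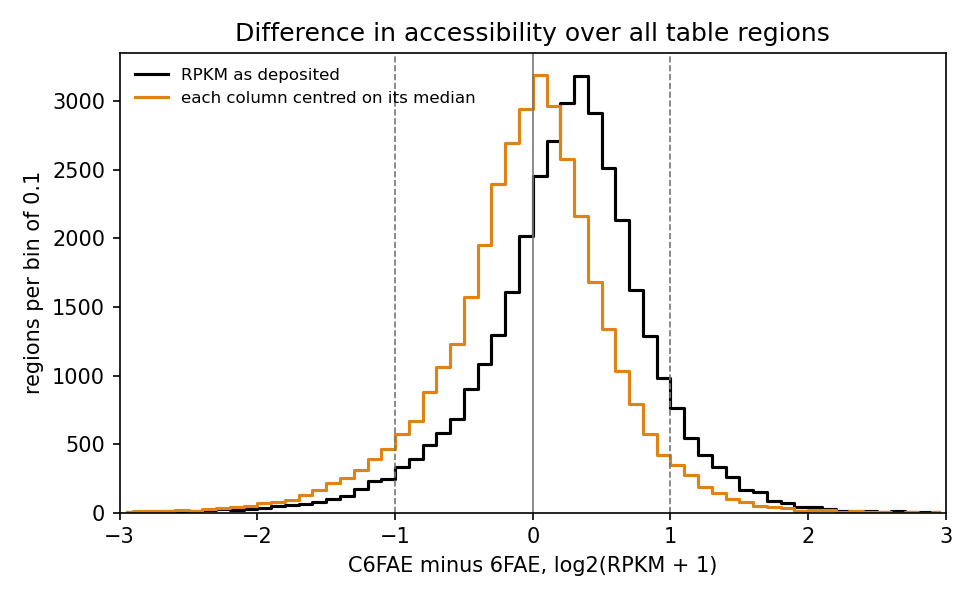
Number of table regions (vertical axis) in bins of 0.1 of the difference C6FAE minus 6FAE in log2(RPKM + 1) (horizontal axis), as deposited in black and with each column centred on its median in orange; dashed lines mark 2-fold. The black curve lies to the right of 0, with 2977 regions past the upper and 1268 past the lower line, and centring turns this to 1312 and 2401.

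The other single omissions were CFAE and C6AE. They share the C6FAE column, so their counts are set side by side without a comparison. After centring, C6FAE against CFAE, which lacks compound 6, had 1559 regions 2-fold higher (4.28% of the table) and 1765 lower (4.84%). C6FAE against C6AE, which lacks Forskolin, had 2146 higher (5.89%) and 3177 lower (8.72%). As deposited, the same counts were 1357 (3.72%) and 2056 (5.64%) without compound 6, and 6722 (18.5%) and 1333 (3.66%) without Forskolin.

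The changed regions were short and mostly free of promoter marks. After centring, regions 2-fold higher in C6FAE had a median length of 812 bp and those 2-fold lower 784 bp, against 1479 bp in the whole table. H3K4me3 regions of the study's table overlapped 6.55% of the higher and 1.96% of the lower regions, and 31.2% of all regions. H3K27me3 regions overlapped 7.62% and 8.5% of them, against 9.37% of all. Of regions with H3K4me3 only, 0.652% were higher (95% Wilson interval 0.511 to 0.831) and 0.336% lower, while of regions with neither mark 4.95% were higher and 9.33% lower. Regions with H3K27me3 only stood near those with neither mark, with 4.15% higher and 10.1% lower.

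Length and mark went together. In the shortest quartile of length, 7.67% of regions were higher and 15.1% lower, and in the longest 0.253% and 0.319%. Within the shortest quartile, regions with H3K4me3 were higher in 6.99% of cases and those without in 7.7%, so the higher share hardly differed by mark there. The lower share was 5.51% with the mark and 15.6% without. Within the longest quartile, 2 of 6220 regions with H3K4me3 were higher and 1 was lower, against 21 and 28 of 2884 without it. Both also went with signal. In the lowest quartile of mean RPKM over the 2 columns 5.01% were higher and 17.3% lower, and in the highest 1.99% and 0.725%. The lowest quartile had a median length of 897 bp, and 2.8% of it overlapped H3K4me3. The SD of the difference was 0.85 in the shortest and 0.31 in the longest regions. Whether length or mark mattered apart from low signal was not tested. Wilson intervals here count regions, which are not replicates.

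The origin of a region in the table moved with its direction. The table could be rebuilt almost in full: joining all peaks with a -log10 p over 3 and a length over 500 bp from the 14 ATAC-seq libraries, within 1000 bp of each other, gave 35947 of the 36431 regions base for base. A region can thus be assigned to the libraries that gave its source peaks. In regions with source peaks from C6FAE and not from 6FAE libraries, 890 of 7363 were higher after centring and 5 were lower. In regions with source peaks from 6FAE and not from C6FAE libraries, 4 of 4349 were higher and 893 lower. These classes hold 894 of the 1312 higher regions (68.1%) and 898 of the 2401 lower regions (37.4%), and a region enters them through the same reads that set its RPKM.

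The remaining regions gave a different balance. In 12122 regions whose source peaks came only from the other treatments, 360 were higher after centring and 1476 lower. As deposited, 815 of these regions were higher (6.72%) and 754 lower (6.22%), with a median difference of 0.06. In the 12542 regions with source peaks from both treatments, changes were rare: 58 were higher and 23 lower after centring. Those common regions were long, with a median of 2982 bp, and 62.6% overlapped H3K4me3. Regions with source peaks in 8 or more of the 14 libraries had 7 higher and 11 lower of 6804.

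**Figure D2:**
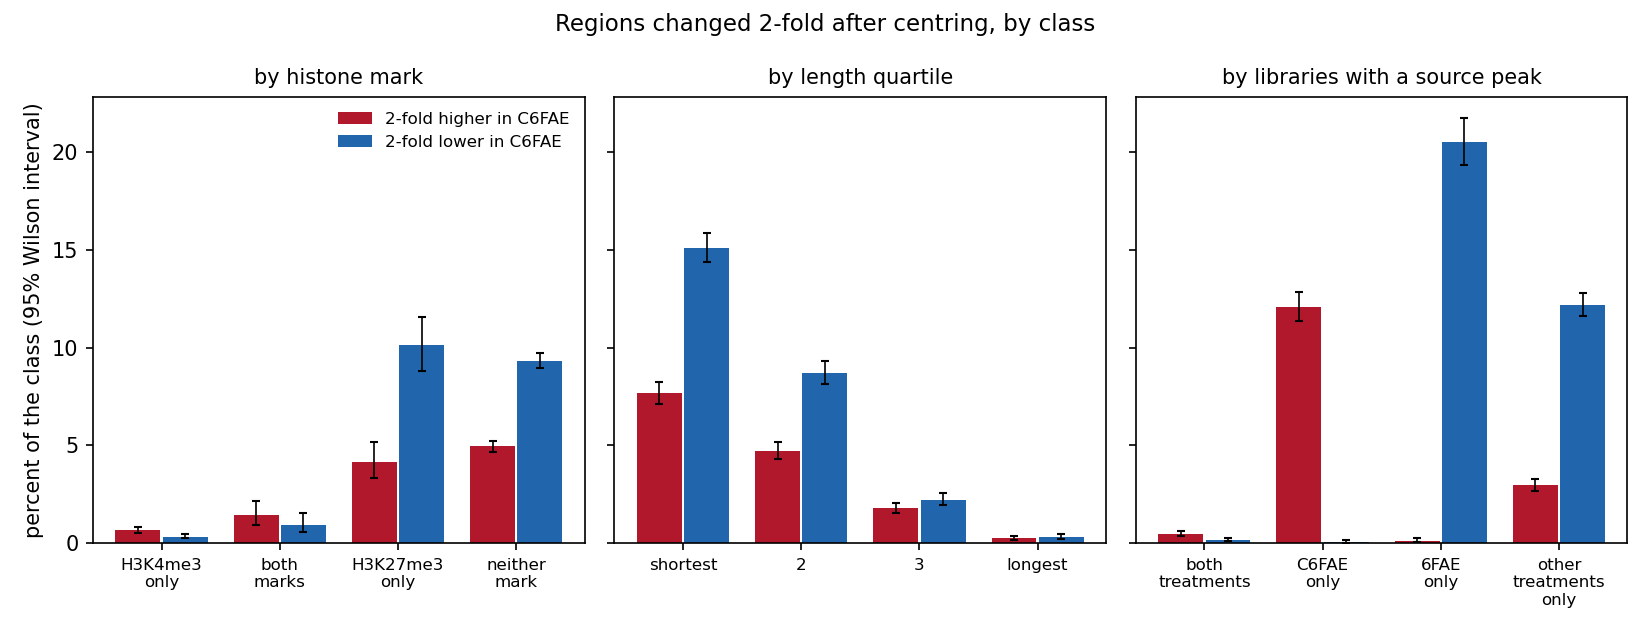
Percent of regions in each class (vertical axis, with 95% Wilson intervals over regions) that were 2-fold higher (red) or lower (blue) in C6FAE after centring, by histone mark, by quartile of length and by the treatments whose libraries gave the source peaks. Changes are rare with H3K4me3 only (0.652% and 0.336%) and in the longest regions, and the direction goes with the source: 12.1% higher where C6FAE alone gave it, 20.5% lower where 6FAE alone did.

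Changed regions were spread over the genome. A second region higher in C6FAE lay within 50 kb of 10.4% of the higher regions, against 7.7% of all regions, and for lower regions the shares were 13.0% and 14.4%. Among 2288 windows of 1 Mb with a region, the largest number of higher regions was 6, at 158 to 159 Mb of chromosome 1 (6 of 22 regions) and at 108 to 109 Mb of chromosome 11 (6 of 30). The window at 86 to 87 Mb of chromosome 4 had 5 of 19. The most lower regions were 7 of 46 at 35 to 36 Mb of chromosome 2 and 7 of 52 at 28 to 29 Mb of chromosome 17, followed by 6 of 24 at 37 to 38 Mb of chromosome 5. None of the 3 windows with most higher regions held a lower one, and only 1327 of all 2288 windows held one.

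The regions that differed 2-fold between C6FAE and 6FAE after centring were then followed in the other treatments, whose columns did not enter the 2-fold choice. Peaks of those treatments did help to set the regions of the table. Of the higher regions 27.4%, and of the lower 61.5%, had source peaks only from them, so the lookup is not independent of these columns. For regions higher in C6FAE, the median of log2(RPKM + 1), with the column median set to 0, was -0.45 in CFAE and -0.49 in C6AE. It was -0.67 in Ctr, -0.76 in Basal and -0.95 in AE, so CFAE and C6AE, which hold CHIR99021, ranked above these 3. CFAE also holds Forskolin and C6AE compound 6, which AE lacks, so CHIR99021 cannot be told apart from them in these columns. In 298 of these 1312 regions (22.7%), CFAE and C6AE were both above AE, Basal and Ctr, against a background of 13.5% of all regions, and both were below in 6.71% against 13.0%. Regions lower in C6FAE gave the reverse for both shares: 17.0% had CFAE and C6AE both below the 3 other columns and 6.66% had both above.

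The medians of the lower regions followed this order less closely. They were -0.31 in Basal, -0.42 in Ctr, -0.44 in C6AE, -0.50 in AE and -0.69 in CFAE. C6AE thus stood between Ctr and AE. The median of CFAE minus AE was 0.34 in the higher and -0.21 in the lower regions, against -0.01 in all, and that of C6AE minus AE was 0.41, 0.01 and 0.03. Quartiles of single regions were wide, from -0.25 to 0.97 for CFAE minus AE in the higher regions.

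The same shares were taken in regions with no source peak from C6FAE or 6FAE. This class entered the table only through peaks of the other treatments, so it is not independent of their columns. There, CFAE and C6AE were both above AE, Basal and Ctr in 14.2% of 360 higher regions (95% Wilson interval 10.9 to 18.1) and in 9.71% of all 12122 regions of the class. Both were below in 18.6% of 1476 lower regions (16.7 to 20.7) and in 16.3% of the class. Higher regions had both below in 11.4% and lower regions both above in 5.22%, against the same 16.3% and 9.71%. The median of CFAE minus AE was 0.07 in the higher regions, -0.32 in the lower and -0.13 in the class. In these higher regions the column medians were -0.40 in C6AE, -0.41 in Basal, -0.44 in Ctr, -0.47 in CFAE and -0.71 in AE. CFAE thus stood below Basal and Ctr here, unlike over all higher regions. Merged columns have no replicates, so these differences between sets of regions were not tested over samples.

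**Figure D3:**
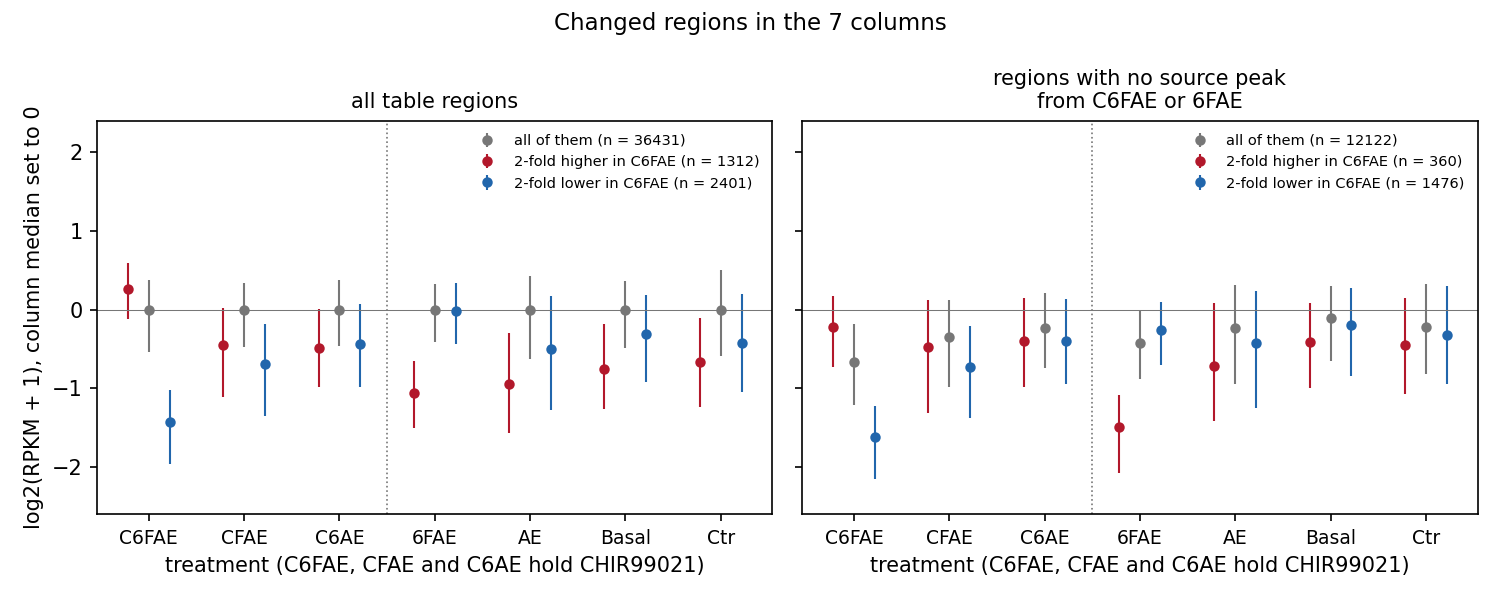
Median and quartiles over regions of log2(RPKM + 1), each column's median set to 0 (vertical axis), in the 7 treatments for regions 2-fold higher (red) or lower (blue) in C6FAE and for all (grey), over the whole table (left) and where neither C6FAE nor 6FAE gave a source peak (right). C6FAE and 6FAE chose the sets. On the left, CFAE and C6AE of the higher regions (-0.45 and -0.49) lie above Ctr, Basal and AE (-0.67 to -0.95). On the right, CFAE of the higher regions (-0.47) lies below Ctr (-0.44) and Basal (-0.41).

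At the few changed regions with a histone mark, the difference in that mark between C6FAE and 6FAE had quartiles on both sides of 0. Of the higher regions, 86 overlapped an H3K4me3 region, with a median of 10.6 RPKM of H3K4me3 in C6FAE and 9.35 RPKM in 6FAE. Relative to all overlapping regions, the difference of log2(RPKM + 1) had a median of 0.07 (quartiles -0.15 and 0.44). The 47 lower regions with the mark gave 0.06 (quartiles -0.18 and 0.36). For H3K27me3 the medians were -0.03 in 100 higher and 0.11 in 204 lower regions, with quartiles on both sides of 0. The C6FAE columns of these marks were taken by their names to hold the samples titled C6FAE, since ChIP-seq samples titled as control also carry that treatment in their labels. There was 1 library of each mark per treatment and no replicate check.

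The peak lists gave more merged peaks in C6FAE only than in 6FAE only, and this turned round without either 6FAE library. Merging the 20000 peaks of highest -log10 p from each library gave 48370 merged peaks. Of these, 1294 (2.68%) held a peak in both C6FAE libraries and in neither 6FAE library, and 356 (0.736%) the reverse, while 4724 were in all 4. Without the first 6FAE library the counts turned round, to 1556 in C6FAE only and 6295 in 6FAE only, and without the second to 5524 and 13414. Without the first C6FAE library they were 9297 and 1001, and without the second 6738 and 517. A treatment left with 1 library needs only that library, so these counts follow the number of libraries as well.

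Peaks found in 1 library of a treatment and not in 1 of the other were looked up in the remaining libraries. Of 13716 merged peaks in the first C6FAE and not the first 6FAE library, 40.1% were in the second C6FAE library and 51.2% in the second 6FAE library. Of 9760 in the second 6FAE and not the second C6FAE library, 35.6% were in the first C6FAE library and 10.3% in the first 6FAE library. In both cases the opposite treatment held the peak more often than the same treatment. Of 7371 in the first C6FAE and not the second 6FAE library, 21.1% were in the second C6FAE and 9.16% in the first 6FAE library. The 14389 in the second C6FAE and not the first 6FAE library gave 38.2% in the first C6FAE and 35.7% in the second 6FAE library. Of 9753 in the second C6FAE and not the second 6FAE library, 15.9% were in the first C6FAE and 5.21% in the first 6FAE library. The 7391 in the second 6FAE and not the first C6FAE library gave 14.9% in the second C6FAE and 6.99% in the first 6FAE library. Peaks of the first 6FAE library not in the first C6FAE library gave 2.97% in the second C6FAE and 3.75% in the second 6FAE library. Those not in the second C6FAE library gave 7.41% in the first C6FAE and 7.0% in the second 6FAE library. The first 6FAE library, the one with fewest peaks at the q threshold, held the smaller share in each case where it was looked up against a C6FAE library.

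A test with replicate error was made on the peak height of each library, and it called no region. The highest pileup (tags stacked at a peak), scaled to 1000000 tags per library, was taken in 25661 regions with a listed peak in all 4 libraries, and log2 values were centred per library. With limma, which draws the variance of each region towards a value shared over regions, 0 regions had an adjusted p under 0.05 (0.0% called). The smallest adjusted p was 0.37. With simulated noise of SD 0.28 in every region, this fit found 72 of 200 regions changed 2-fold and 200 of 200 changed 4-fold. A count of 0 thus does not show that 2-fold changes are absent. At an unadjusted p under 0.05 there were 768 regions higher and 619 lower in C6FAE, 5.41% of those tested. Over these regions the difference between single libraries had an SD of 0.37 (log2) between the C6FAE libraries and 0.42 between the 6FAE libraries. Between a C6FAE and a 6FAE library it ranged from 0.37 to 0.42, a range that takes in both SDs within a treatment to these decimals.

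Only 330 of the 1312 higher and 546 of the 2401 lower regions had a peak in all 4 libraries and could be tested, since a region low in 1 treatment often had no listed peak there. In those 330, the median pileup difference was 0.41 on the log2 scale, and both C6FAE libraries were above both 6FAE libraries in 220, against 17.7% of all regions tested. In the 546 lower regions the median was -0.45, and both C6FAE libraries were below in 359, against 16.4%. The RPKM that chose these regions comes from the same libraries, so nothing is read from these counts.

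A choice made in 1 pair of libraries was therefore looked up in the other pair, which it did not use. The 228 regions at least 2-fold higher in the first C6FAE over the first 6FAE library had a median log2 difference of 1.10 there and of 0.01 between the second libraries (quartiles -0.32 and 0.31). The 331 regions higher in the second C6FAE over the first 6FAE library had 1.12 there and 0.02 in the other pair. The largest median kept was 0.16, for 102 regions higher in the first C6FAE over the second 6FAE library, of which 63.7% were above 0 in the other pair against 49.1% of all regions. Regions chosen as lower had medians in the other pair from -0.05 to 0.13. Over all 25661 regions, the difference of 1 pair and that of the other had a Pearson r of 0.004 or 0.04, depending on how the libraries were paired. Regions of 1 library share its depth, so these values of r describe the libraries. The lookup took in only regions with a listed peak in all 4 libraries. It therefore cannot show what became of regions without a listed peak in 1 treatment.

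**Figure D4:**
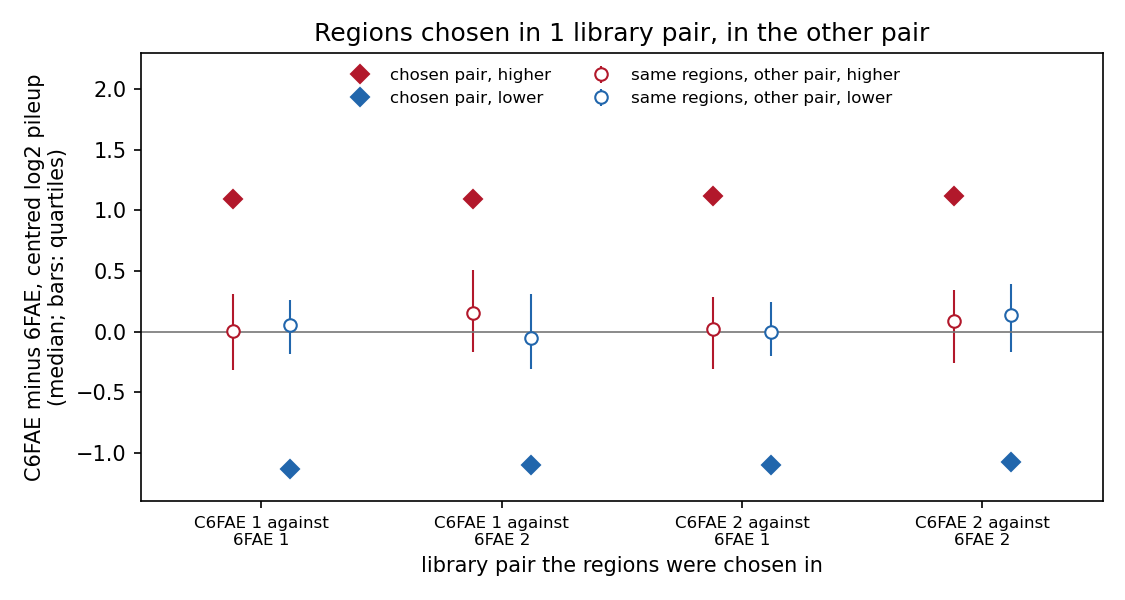
Median difference C6FAE minus 6FAE in centred log2 pileup (vertical axis) for regions at least 2-fold higher (red) or lower (blue) in 1 pair of libraries (filled diamonds), and for the same regions in the other pair (open circles, bars are quartiles). Medians of about 1.1 in the pair that chose the regions fall to between -0.05 and 0.16 in the other pair. Only regions with a listed peak in all 4 libraries entered.

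Single regions with the largest changes were named where the peak lists of both libraries gave the same direction as the RPKM. A peak among the 20000 highest of both C6FAE libraries and of neither 6FAE library was found in 1192 table regions (3.27% of all), and the reverse in 317 (0.87%). Their median centred differences in RPKM were 0.48 and -0.52. Peaks and RPKM come from the same libraries, so the shared direction is not independent evidence. The largest increase was at chr19:23440830-23441682 (853 bp), with 24.5 RPKM in C6FAE and 3.74 RPKM in 6FAE. Its highest scaled pileup (per 1000000 tags) was 0.668 and 0.724 in the C6FAE libraries, and neither 6FAE library listed a peak. Unscaled, these heights were 5.11 and 3.72 tags. The lowest listed pileup was 3 and 2 tags in the first and second C6FAE libraries, and 2 and 3 tags in the 6FAE libraries. These peaks were thus few tags high, and a peak that is not listed does not mean that no tags were there. The 5 other columns stood between 3.93 RPKM in Basal and 13.5 RPKM in CFAE.

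The second increase, at chr12:80530550-80531467, had 26.2 RPKM in C6FAE and 4.38 RPKM in 6FAE. Its scaled pileup was 0.693 and 0.648 in C6FAE, 0.406 in the second 6FAE library and not listed in the first. The third, at chr5:122499808-122500655, overlapped both histone marks and had 40.8 RPKM in C6FAE and 8.42 RPKM in 6FAE. The fourth, at chr1:160746557-160747467, overlapped H3K27me3 and had 30.7 RPKM and 6.33 RPKM. That the C6FAE peaks ranked higher in these regions was fixed by their choice.

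The next increases were at chr12:102243279-102244847, chr11:92970721-92971315, chr13:110599819-110601118 and chr11:108706781-108708229. They had 22.3 to 39.9 RPKM in C6FAE and 4.47 to 8.65 RPKM in 6FAE. The last of them lies in the window of chromosome 11 with 6 higher regions. The region on chromosome 11 at 92970721 had the highest peak of the 8, with a scaled pileup of 1.24 in the second C6FAE library and 0.711 in the first. After centring, CFAE was second to C6FAE in 5 of the 8 regions. CFAE and C6AE were both above AE, Basal and Ctr in 3, against 13.5% of all regions. The first 6FAE library listed no peak in 6 of the 8, the second in 2. All 8 had source peaks from C6FAE and not from 6FAE libraries, and 6 of them from 1 library alone.

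The largest decrease was at chr6:70780524-70781326 (803 bp), with 3.82 RPKM in C6FAE and 23.1 RPKM in 6FAE. The scaled pileup was 0.799 and 0.613 in the 6FAE libraries and 0.432 in the second C6FAE library, and the first listed no peak. The second decrease, at chr2:77847743-77848401, had 6.67 RPKM and 26.0 RPKM, and the third, at chr3:135333528-135334289, had 8.6 RPKM and 30.4 RPKM. At the third, Basal and Ctr had 25.2 and 30.7 RPKM and CFAE and C6AE 10.6 and 7.96 RPKM. CFAE and C6AE were thus on the side of C6FAE, and AE was between them and Basal with 18.6 RPKM.

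The further decreases were at chr7:151564126-151564653, chr4:105569629-105571374, chr17:87907633-87908790, chr17:32253445-32254689 and chr8:47310421-47311728. They had 4.9 to 9.29 RPKM in C6FAE and 16.0 to 26.7 RPKM in 6FAE. C6FAE was the lowest of the 7 centred columns in 7 of the 8 decreases, and 6FAE the highest in 5, which the choice of these regions favoured. CFAE and C6AE were both below AE, Basal and Ctr in 2 of the 8 and both above in 2. Of all regions, 13.0% had both below and 13.5% both above. No decrease overlapped a histone mark, and 7 had source peaks from 6FAE and not from C6FAE libraries. Of the 16 regions, 3 could be tested, and their adjusted p by limma ranged from 0.91 to 0.94.

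**Figure D5:**
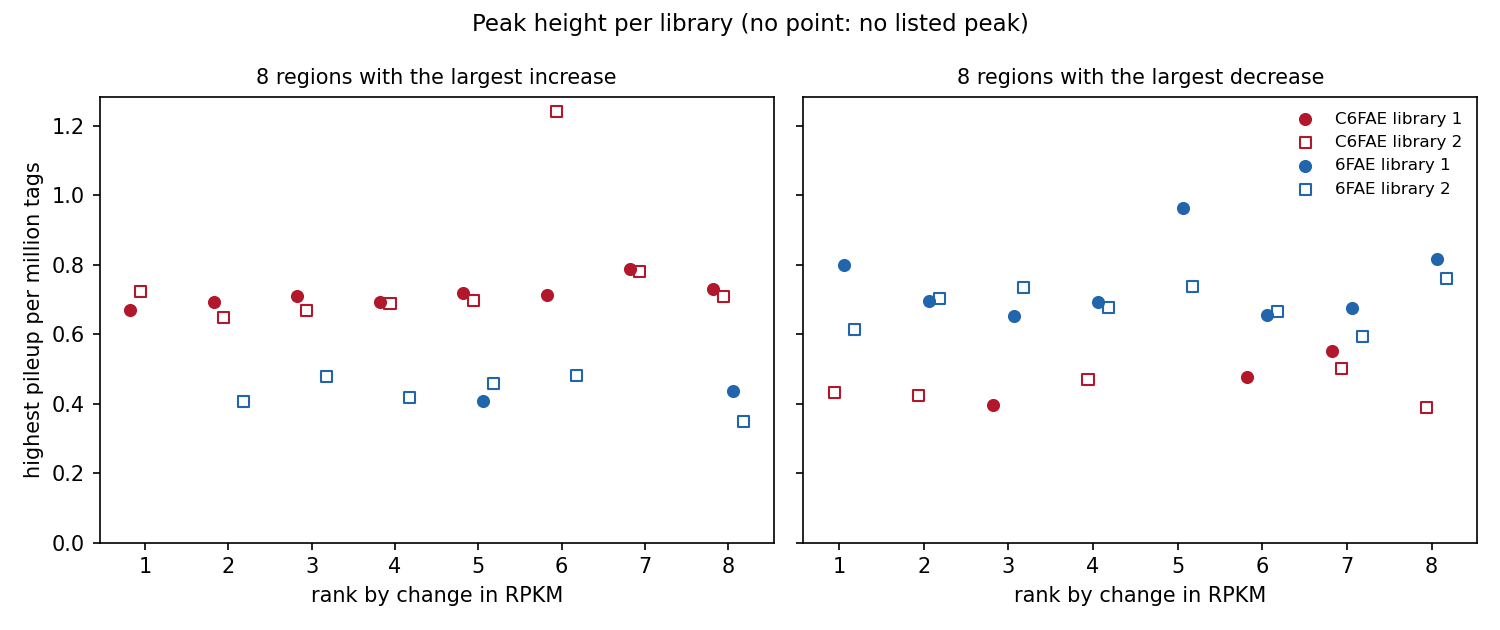
Highest scaled pileup, per 1000000 tags (vertical axis) in each of the 4 libraries at the 8 regions with the largest increase (left) and decrease (right), in order of the change in RPKM; a library without a point listed no peak there. C6FAE libraries (red) stand above 6FAE libraries (blue) on the left and below on the right, which the choice of the regions favoured. The first 6FAE library has a point at 2 of 8 increases.

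The region with the smallest p in the test was at chr16:77012858-77015160, which overlapped H3K4me3. Its scaled pileup was 1.14 and 1.303 in the C6FAE libraries and 0.458 and 0.406 in the 6FAE libraries, a log2 difference of 1.32 (SE 0.27, limma adjusted p = 0.37, n = 2 and 2). The groups did not overlap, but the difference did not pass the test over all regions. Its RPKM was 29.1 in C6FAE, 24.5 in CFAE and 15.2 in C6AE, against 11.5 in 6FAE, 14.01 in AE, 13.9 in Basal and 19.9 in Ctr.

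When a library without a listed peak was set at its lowest listed pileup, all 36431 regions could be tested, and limma called 2, both higher in C6FAE (adjusted p = 0.046 each). They are named after their values were seen. In this fit limma gave all regions the same variance, so the SE and adjusted p hold nothing of a region's own spread between libraries. At chr9:59928784-59931873, with a listed peak in all 4 libraries, the scaled pileup was 1.80 and 1.66 in C6FAE and 0.431 and 0.823 in 6FAE. The log2 difference was 1.37 (SE 0.29, shared by all regions). The same region had an adjusted p of 0.37 in the test on listed peaks alone. Its RPKM was 23.8 in C6FAE, 19.8 in CFAE and 10.4 in C6AE, against 7.39 in AE, 6.89 in Basal and 4.33 in Ctr, but 13.1 in 6FAE. All 3 columns with CHIR99021 were thus above AE, Basal and Ctr, and 6FAE was above C6AE.

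At the other, chr16:63313512-63314171, the value of the first 6FAE library was filled in at the floor, since it listed no peak. The scaled pileup was 1.73 and 1.32 in C6FAE and 0.649 in the second 6FAE library, with a log2 difference of 1.39 (SE 0.29). Its RPKM was 49.9 in C6FAE and 13.6 in 6FAE, with 47.5 in CFAE, 26.5 in C6AE, 42.3 in AE, 31.2 in Basal and 13.8 in Ctr. Here 6FAE stood with Ctr, and AE stood between CFAE and Basal.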

How the data were processed

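ATAC-seq of MEFs on day 4 was analysed from peak lists of single libraries and from tables of merged RPKM. The members, lists and tests were chosen with earlier results of these data known. Per the submitters' processing notes, Bowtie2, MACS2 and deepTools 3.1.0 were used with the build mm9. The authors deposited RPKM as the mean over bins of each region, in 1 column per treatment merged over libraries, which hides the spread between libraries. The authors called broad ATAC-seq peaks per library with MACS 2.1.2 at p of 0.05, without control or local background and with tags extended to 250 bp; the deposited lists give the pileup (signal) and the -log10 p and -log10 q. The headers say that q was not calculated, yet the column holds values, used as listed. The fold enrichment ratio that the authors' lists also hold was not used. The tables held 10 further columns that were not used.

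Differences were taken on log2(RPKM + 1), as deposited and centred, with counts at 2-fold. Peaks were merged at an overlap of 1 bp. Pileup per 1000000 kept tags was tested with limma 3.58.1 in R 4.3.3, with Benjamini-Hochberg adjustment over all regions. The variance of a region between the 2 libraries a group was drawn towards a value shared over regions. That shared value had 28.4 degrees of freedom, against 2 of the region itself. SEs and p-values thus rest mostly on the shared spread between libraries and less on that of the single region. An exact permutation test of 2 against 2 cannot go below p = 0.33 (two-sided) and was not used. Total tags over the 14 ATAC-seq libraries ranged from 3346418 to 8764791. Wilson intervals cover the number of regions only; no molecular identifiers were counted, so tags may repeat molecules. Named regions were the 8 largest centred increases and 8 largest decreases with a peak of the 20000 highest -log10 p in both libraries of 1 treatment and neither of the other, on assembled chromosomes other than 18; regions past the limma threshold, at most 5 each way; and the 3 windows of 1 Mb with most changes each way. The region of smallest p and those called with a floor were added after their values were seen. Planned gene lists (Wnt targets and others) needed an mm9 annotation and were not analysed here. Alternatives changed the scaling, pseudocount, fold, filters, peak threshold, overlap and libraries. Scripts were tested on simulated data. Counting was done in Python 3.11.15 (pandas 2.3.3, numpy 2.4.6; intervals by scipy 1.17.1) and plots in matplotlib 3.10.9. ChIP-seq samples titled as control but labelled C6FAE were assigned to no group.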

Additional observations from a re-analysis of the deposited data

How the results depend on the processing

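Counts of regions 2-fold higher and lower in C6FAE moved from 2977 and 1268 as deposited to 1312 and 2401 with centring, 1754 and 1803 with quantile normalization, 843 and 3219 with centring on the most open regions, 372 and 115 with a pseudocount of 10, and 9340 and 3162 at 1.5-fold. Leaving out the lowest 25% of regions by mean RPKM left 379 lower, and a pseudocount of 0.1 gave 3573 and 1584. The median difference of 0.28 turned to -0.00523 with centring, -0.000635 with quantile normalization and -0.14 with centring on the most open regions, and was 0.30 and 0.18 with pseudocounts of 0.1 and 10 and 0.33 without the lowest 25%. In regions whose source peaks came from neither treatment, an alternative chosen after seeing the data, 6.22% were lower and the median was 0.0595. The scaling itself moves these values by its construction; the cause of the other shifts was not tested.

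Merged peaks in C6FAE only and in 6FAE only, 1294 and 356 in the report, were 19274 and 30086 with every listed peak, 475 and 11 for -log10 q from 1.3 up, 39 and 1 from 5 up, and 14647 and 19298 where 1 library sufficed. With the 10000 highest peaks 235 were in 6FAE only. Leaving out 1 library gave 1556 to 9297 in C6FAE only and 517 to 13414 in 6FAE only.

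The limma test called 0 regions under every scaling, filter, peak measure and set of libraries tried on listed peaks, including each left-out library, where a lone library is assumed to vary like the other group, and the smallest adjusted p over them ranged from 0.12 to 1.00. With a floor, chosen after seeing the data, it called 2 (adjusted p = 0.046). With the replicate number as a block 0 regions were called and the smallest adjusted p was 0.14, so the block changed no call. The libraries share only a number: deviations of same-numbered libraries from their treatment means had a correlation of -0.04 over 25661 regions.

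The share of higher regions with CFAE and C6AE both above AE, Basal and Ctr was 22.7% and stayed within its interval with regions chosen as deposited or at 1.5-fold, but was 14.2% where neither treatment gave a source peak; there the share of lower regions with both below was 18.6%. The median of C6AE minus AE in lower regions, 0.01, was -0.0354 at 1.5-fold and -0.0133 in regions with neither source. The test needs a listed peak in each library: from 82.4% to 91.2% of table regions had a listed peak in a single library of the 4, and 70.4% had one in all 4.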
